A study of Mus musculus with 9 samples.

Results

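The genes described here are 32 chaperones, folding enzymes, stress sensors and degradation factors of the endoplasmic reticulum (ER), taken by symbol from a named list out of 54752 genes in the count table. Each of the 32 matched 1 gene identifier, and each passed the filter on low counts. The cells are B16F10, a line from a mouse melanoma, kept in DMEM with 10% FBS. The control group, GFPsg, carries a guide named for GFP and has the genotype WT. The groups Tada2bsg1 (guide 1) and Tada2bsg2 (guide 2) have the genotype Tada2b knockout. The product of this gene belongs to SAGA, a coactivator complex that acetylates histones. Each group holds 3 libraries of mRNA sequenced from RNA of the whole culture. The labels give no drug or time point, and they do not say whether a group is a single clone or a pool of edited cells, or whether replicates were separate cultures. The p-values therefore measure only the spread between these libraries, which may be technical.

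Proteins that enter the secretory pathway cross the ER membrane through the Sec61 channel and are folded by the Hsp70 chaperone BiP (the product of Hspa5), by the lectin chaperones calnexin and calreticulin, and by disulfide isomerases. Chains that fail to fold are drawn back out through the HRD1 complex and degraded in the cytosol, which is called ER-associated degradation. When unfolded chains pile up, the sensors IRE1 (Ern1), ATF6 and PERK (Eif2ak3) start the unfolded protein response, in which IRE1 splices Xbp1 mRNA and ATF6 is cut in the Golgi, and both products then raise transcription of the chaperone genes. Counts summed over a gene show neither the splicing of Xbp1 nor the cutting of ATF6.

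Library totals were 70.6 to 76.9 M counts (M, mega). CPM are counts scaled to the effective library size. Tada2b itself was at 28.0, 25.2 and 26.6 CPM in GFPsg, 32.3, 33.3 and 32.7 CPM with guide 1 and 29.0, 26.0 and 25.9 CPM with guide 2. It was not lower in the libraries labelled knockout (log2 change 0.16, edgeR adjusted p = 0.0101). Counts summed over a gene do not show whether its sequence was edited, so they cannot decide on the label. The groups are named by label throughout. All 8 melanocyte markers were detected, and their summed CPM ran from 20378 to 21176 in the controls, from 4992 to 5227 for guide 1 and from 7054 to 7298 for guide 2. Summed leukocyte markers were 2.56 to 2.96 CPM in GFPsg and 5.46 to 6.55 CPM with the guides, without overlap. Ptprc, Itgam and Ncr1 were at 0 in every library, and Lyz2 (log2 change 1.08) and Cd68 (1.09) were called higher. Summed fibroblast and endothelial markers were 4.89 to 7.27 CPM in GFPsg and 12.4 to 14.7 CPM with the guides. Only 2 of these 8 markers passed the filter on low counts. Pdgfrb was called higher (log2 change 1.45), from a mean of 4.36 CPM to 11.8 and 12.0 CPM, and Pdgfra was not called (−0.04). Epithelial markers were below 0.80 CPM, and Cdh1, the only one that passed the filter, was called lower (log2 change −2.03). Of 6 plasma cell markers, Sdc1 made up nearly the whole sum of 58.7 to 66.97 CPM. Apart from the plasma cell sum, these marker sums differed between GFPsg and the guides. With the guides the melanocyte and epithelial sums were lower, and the leukocyte sum and the fibroblast and endothelial sum were higher. Their part in the falls described here was not tested. In RNA from whole cultures, fewer cells of a type and less RNA per cell cannot be told apart.

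A regulatory sequence that these genes are known to share is the ER stress response element (ERSE), which ATF6 and spliced XBP1 bind together with the CCAAT factor NF-Y. It was searched as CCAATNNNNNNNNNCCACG on both strands of RefSeq promoter windows (build GRCm38.p6, 250 bases before to 50 bases after each gene start). A window was found for 27 of the 32 genes. Atf6, Derl1, Hyou1, Manf and Sec61a1 had none in the table. The exact element stood in 9 of the 27 (33.3%), against 37 of all 27025 symbols with a window (0.137%). Some of these genes are textbook examples of the element, so that this share describes the list and is no independent finding. The matches are shown because they are the shared feature that the expression values can be set against. Capitals mark the CCAAT and CCACG ends, each read 5′ to 3′ on the strand that carries the element.
Hspa5: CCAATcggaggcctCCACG
Hsp90b1, distal: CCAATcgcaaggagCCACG
Hsp90b1, proximal: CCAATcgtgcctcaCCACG
Dnajc3: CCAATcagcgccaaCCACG
Calr: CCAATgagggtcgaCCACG
Canx: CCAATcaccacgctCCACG
Pdia6: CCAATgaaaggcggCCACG
Creld2: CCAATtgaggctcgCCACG
Syvn1: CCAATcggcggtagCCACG
Derl3: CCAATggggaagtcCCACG

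These matches lay between 212 and 26 bases upstream of the start, and the 9 spacer bases differed from gene to gene. A shorter form, ERSE-II, was searched as ATTGGNCCACG. It stood in the windows of Herpud1 and Dnajb11, 2 of 27 genes (7.41%), against 12 of 27025 symbols (0.0444%). Its CCACG is shared in letters with the end of ERSE, but none of the 27 windows held both. In Herpud1 it ended 42 bases upstream of the start, and in Dnajb11 it lay after the start.
Herpud1: ATTGGGCCACG
Dnajb11: ATTGGCCCACG

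The core of the unfolded protein response element, searched as TGACGTG, was found in the windows of Hspa5 and Sec24d, again 7.41% of the genes, against 2.22% of all symbols. The plain CCAAT box was present in 81.5% of the genes and 41.1% of all symbols. The promoters of Hspa5, Herpud1 and Sdf2l1 are printed up to the base before the RefSeq start, which for Hspa5 lies inside the gene's GENCODE span. In the first and second of these, capitals mark ERSE, ERSE-II and TGACGTG. In Sdf2l1, which had none of these elements, capitals mark CCAAT and CCACG on either strand.
Hspa5, chr2:34771840-34772089, plus strand: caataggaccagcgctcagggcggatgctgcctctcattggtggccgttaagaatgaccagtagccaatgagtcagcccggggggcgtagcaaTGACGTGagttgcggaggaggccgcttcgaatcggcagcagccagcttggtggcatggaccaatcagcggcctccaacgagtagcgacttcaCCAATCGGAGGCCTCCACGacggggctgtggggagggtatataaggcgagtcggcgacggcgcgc
Herpud1, chr8:94386179-94386428, plus strand: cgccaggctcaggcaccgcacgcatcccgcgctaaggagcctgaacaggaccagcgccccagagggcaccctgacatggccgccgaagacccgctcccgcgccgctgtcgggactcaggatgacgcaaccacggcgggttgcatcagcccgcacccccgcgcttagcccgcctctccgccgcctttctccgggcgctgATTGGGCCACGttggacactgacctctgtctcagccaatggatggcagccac
Sdf2l1, chr16:17132384-17132633, minus strand: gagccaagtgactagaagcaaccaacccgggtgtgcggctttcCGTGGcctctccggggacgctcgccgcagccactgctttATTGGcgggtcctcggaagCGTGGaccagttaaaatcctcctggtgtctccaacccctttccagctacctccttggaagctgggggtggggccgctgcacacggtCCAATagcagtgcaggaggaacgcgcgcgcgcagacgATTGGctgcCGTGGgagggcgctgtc

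Most of the ER genes were lower in the libraries labelled knockout. In the knockout contrast, which sets the mean of both guides against GFPsg, 26 of 32 fell, 2 rose and 4 were not called by edgeR's quasi-likelihood test at an adjusted p under 0.05 over all genes tested. Among all 17931 genes tested, 51.0% were called, 26.3% lower and 24.7% higher. The median log2 change of the 32 was −0.33, and that of all tested genes was −0.02. The largest falls were those of Sdf2l1 (−1.002), Herpud1 (−0.82), Dnajb9 (−0.81), Sec61b (−0.73), Pdia4 (−0.73) and Dnajc3 (−0.70). Atf6 (0.31) and Sec24d (0.17) rose. In 24 of the 32 genes all 6 libraries labelled knockout lay below all 3 controls, and in 2 they lay above, against 22.2% and 21.8% of all tested genes. The falls were modest, since none but that of Sdf2l1 reached a factor of 2. With library size alone in place of TMM scaling, the median of all tested genes moved from −0.02 to 0.07 and that of the ER genes from −0.33 to −0.24. The share of all called genes that were higher then moved from 48.4% to 63.3%.

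**Figure D1:**
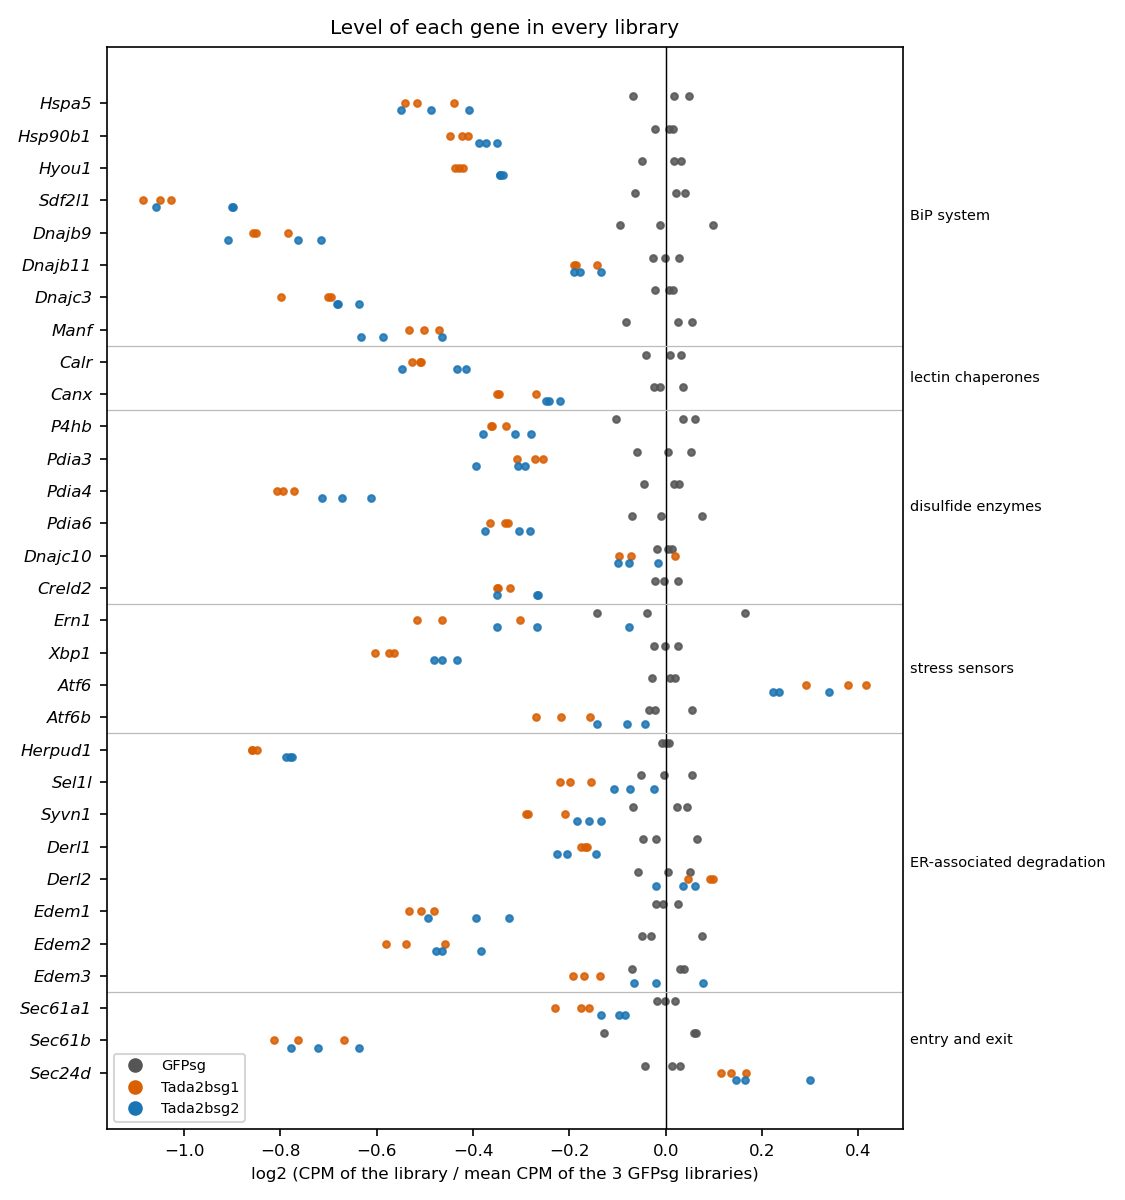
Level of 31 of the 32 genes in each of the 9 libraries, as log2 of the library's CPM over the mean CPM of the 3 GFPsg libraries; each point is a library, colours are groups, and genes are ordered by role. Derl3, at 5 to 16 reads per library, is left out. Most orange and blue points lie left of the grey controls, and those of Atf6 and Sec24d lie to the right.

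Summed over the 32 genes, these transcripts took 1.28 ± 0.01% of all counts in GFPsg, 1.03 ± 0.004% with guide 1 and 1.06 ± 0.01% with guide 2 (mean ± SD, n = 3). The libraries ran from 1.27 to 1.29% in GFPsg, from 1.02 to 1.03% with guide 1 and from 1.04 to 1.07% with guide 2, so that the control range stood clear of the others. The BiP system accounted for 0.40% of counts in GFPsg and for 0.30 and 0.31% with the guides. Lectin chaperones went from 0.34% to 0.27 and 0.29%, and disulfide enzymes from 0.37% to 0.31% with each guide. The share on the 4 genes grouped as stress sensors was 0.023% in GFPsg, 0.022% with guide 1 and 0.023% with guide 2. These are Ern1, Atf6, Atf6b and Xbp1, of which Xbp1 encodes a transcription factor and not a sensor.

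**Figure D2:**
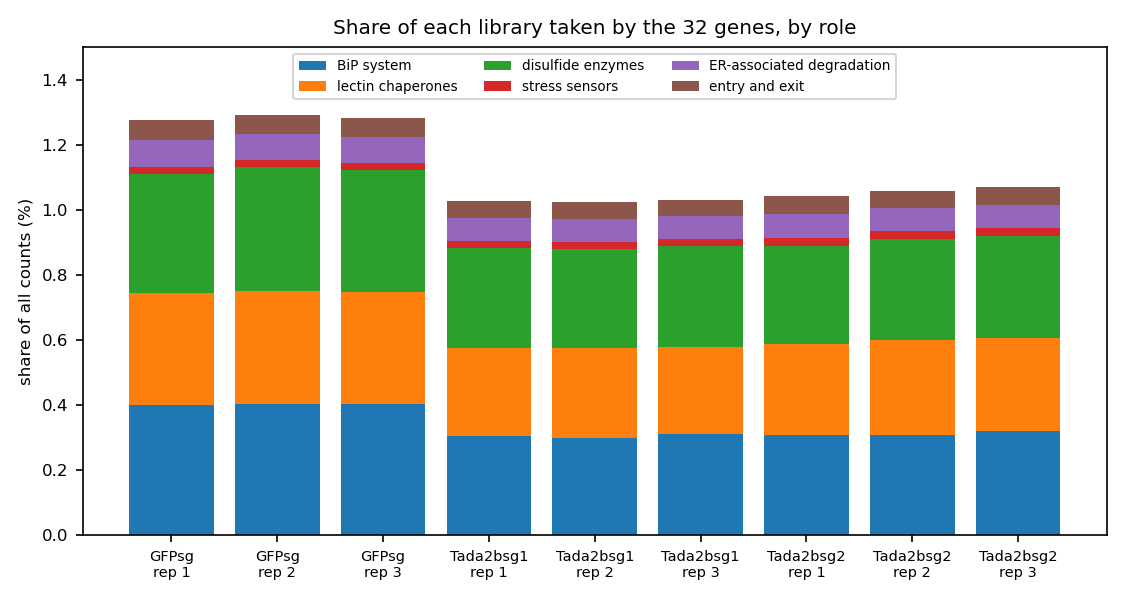
Share of all counts in each library taken by the 32 genes, in percent, stacked by role; each bar is a library. The 3 GFPsg bars reach 1.27 to 1.29% and the 6 others 1.02 to 1.07%.

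Levels were compared between genes per transcript length, as TPM computed here from exon lengths. In GFPsg, Calr was the most abundant of the 32 at 1327 ± 30.1 TPM (mean ± SD, n = 3), rank 92 of all genes in the table. Hspa5 (890 ± 6.71 TPM), P4hb (842 ± 12.9), Pdia3 (750 ± 7.75) and Canx (681 ± 21.5) followed, and their means lay further apart than these SDs. Hsp90b1 (521 ± 19.2) and Pdia4 (500 ± 12.9) differed by less than the sum of their SDs. The genes grouped as stress sensors stood far lower, with Xbp1 at 55.7 ± 3.69 TPM, Atf6b at 31.9 ± 2.58, Atf6 at 16.7 ± 0.87 and Ern1 at 5.64 ± 0.90. Derl3, a derlin known from secretory tissues, was close to undetected at 0.10 ± 0.045 TPM.

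**Figure D3:**
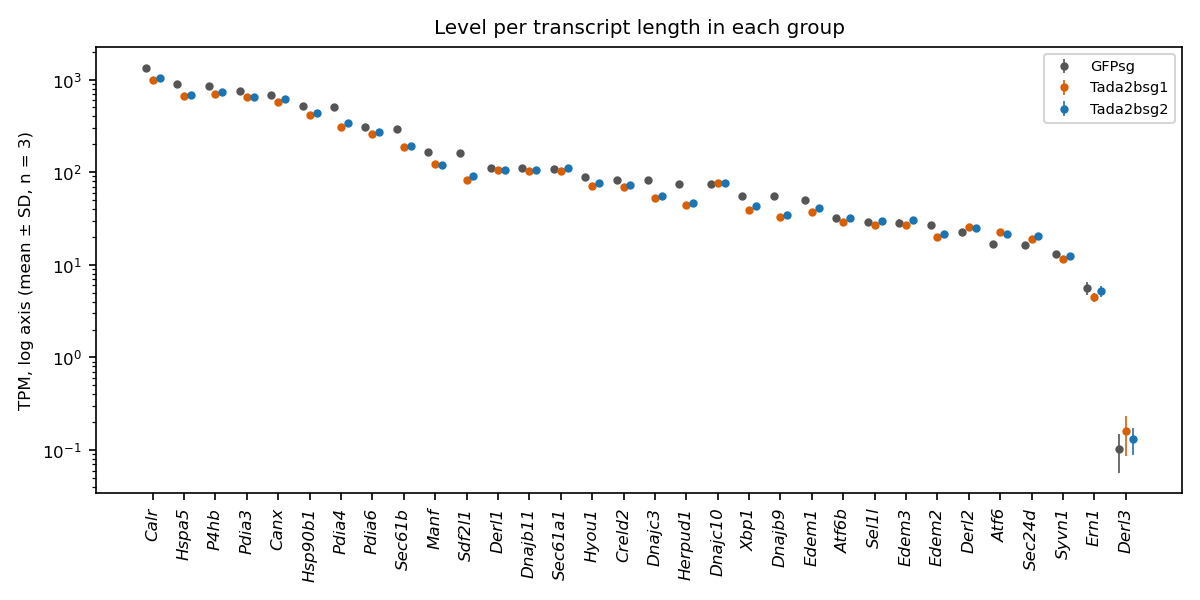
Level per transcript length (TPM, log axis) of the 32 genes in each group; points are means and bars SDs of 3 libraries. Genes are ordered by their level in GFPsg, from Calr at 1327 TPM to Derl3 at 0.10 TPM.

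The BiP system fell as a whole. All 8 of its genes were called lower, with a median log2 change of −0.51, and in each of the 8 the 6 libraries labelled knockout lay below the 3 controls. Hspa5, the ER Hsp70 (ENSMUSG00000026864, chromosome 2, 34771970 to 34777547, mm10), was measured at 1837, 1989 and 1948 CPM in GFPsg, at 1345, 1323 and 1418 CPM with guide 1 and at 1314, 1373 and 1450 CPM with guide 2. The guides overlapped each other and neither overlapped the control. The log2 change was −0.49 ± 0.04 (SE; edgeR adjusted p = 9.46e-09).

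Sdf2l1, a partner of BiP and of its J proteins (ENSMUSG00000022769, chromosome 16, 17130138 to 17132383), had the largest fall of the 32. Its CPM were 87.9, 93.2 and 94.5 in GFPsg, 43.3, 44.4 and 45.1 with guide 1, and 44.1, 49.3 and 49.2 with guide 2. All 6 libraries labelled knockout lay far below the controls, and the guides overlapped each other. The log2 change was −1.002 ± 0.04 (SE; edgeR adjusted p = 1.13e-12).

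Dnajc3, which encodes the J protein and BiP cochaperone P58IPK, is also known as a brake on PERK (ENSMUSG00000022136, chromosome 14, 118937976 to 118981697). It stood at 216, 217 and 212 CPM in GFPsg, at 133, 132 and 124 CPM with guide 1 and at 134, 138 and 134 CPM with guide 2. The controls lay close together and far above both guides. The log2 change was −0.70 ± 0.03 (SE; edgeR adjusted p = 9.19e-12).

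The J proteins did not move to the same extent. Dnajb9 (ERdj4), an XBP1 target that guides BiP to IRE1 and to degradation substrates, fell from 71.6 ± 4.83 CPM to 40.3 ± 1.12 and 41.3 ± 2.83 CPM (log2 change −0.81). Dnajb11 (ERdj3), a J protein that binds nascent chains, fell by 0.17 only, from 182 ± 3.34 CPM to 161 ± 3.06 and 162 ± 3.31 CPM, and its call with guide 2 was lost with library size alone (edgeR adjusted p = 0.0642). Hyou1, the nucleotide exchange factor of BiP, fell by 0.39 and Hsp90b1 (GRP94), the ER Hsp90, by 0.40. Manf, a secreted factor that binds BiP, fell by 0.53 (CPM 296 ± 14.5 in GFPsg, 209 ± 4.46 and 200 ± 12.3 with the guides, mean ± SD, n = 3). Manf overlaps exons of Dcaf1 and of an antisense gene on the opposite strand (4.14 and 4.71% of its exon bases), and 10.3% of Hsp90b1 exon bases overlap an opposite-strand pseudogene. The strand setting of the counting is not given in the sources used here, so reads in these stretches cannot be assigned.

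Both lectin chaperones fell. Calreticulin and calnexin hold newly made glycoproteins by a trimmed sugar while they fold, and they also serve the loading of MHC class I molecules. Calr, which encodes the soluble form (ENSMUSG00000003814, chromosome 8, 84841850 to 84846934), measured 1897, 1995 and 1964 CPM in GFPsg, 1354, 1370 and 1372 CPM with guide 1 and 1336, 1464 and 1446 CPM with guide 2. All 6 values lay far below the controls, and the log2 change was −0.49 ± 0.03 (SE; edgeR adjusted p = 2.25e-09). Canx, which encodes the membrane-bound form, measured 1604, 1672 and 1619 CPM in GFPsg, 1280, 1354 and 1284 CPM with guide 1 and 1379, 1401 and 1374 CPM with guide 2. Here the libraries of guide 1 lay below those of guide 2 without overlap, and the log2 change was −0.28 ± 0.03 (SE; edgeR adjusted p = 1.1e-06).

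Among the 6 genes of disulfide exchange, 5 fell and Dnajc10 was not called, with a median log2 change of −0.32. Pdia4 (ERp72), a disulfide isomerase that works beside BiP (ENSMUSG00000025823, chromosome 6, 47796141 to 47813430), had the largest fall of the group. Its libraries read 594, 621 and 624 CPM in GFPsg, 350, 353 and 359 CPM with guide 1 and 374, 384 and 401 CPM with guide 2. The groups were separate from one another, and the log2 change was −0.73 ± 0.03 (SE; edgeR adjusted p = 5.23e-12).

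P4hb, the classical protein disulfide isomerase, had the highest mean CPM of the group in GFPsg (1232 ± 73.96, against 1203 ± 47.3 for Pdia3), but not with guide 1 (965 ± 11.9, against 992 ± 18.8). It was at 1148, 1286 and 1263 CPM in GFPsg, 959, 958 and 979 CPM with guide 1 and 947, 992 and 1016 CPM with guide 2. It fell by 0.34 ± 0.04 on the log2 scale (SE; edgeR adjusted p = 9.99e-07). Creld2, a secreted protein known as an ER stress marker, was at 57.0, 58.9 and 57.8 CPM in GFPsg, 46.3, 45.4 and 45.5 CPM with guide 1 and 45.4, 48.1 and 48.1 CPM with guide 2 (log2 change −0.32 ± 0.03 SE, edgeR adjusted p = 7.03e-07). In both genes every library labelled knockout was below every control. Pdia3 (ERp57), the partner of the lectin chaperones, fell by 0.30 and Pdia6, which acts on IRE1 and PERK, by 0.33.

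Dnajc10 (ERdj5), a reductase that opens disulfides ahead of degradation, stood apart from this group. Its mean was 191 ± 2.15 CPM in the controls, 185 ± 7.91 for guide 1 and 183 ± 5.39 for guide 2 (SD, n = 3), and the groups overlapped. Its log2 change of −0.06 ± 0.03 was not called (edgeR adjusted p = 0.196), and it turned to 0.03 with library size alone.

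The genes grouped as stress sensors moved in opposite directions. Xbp1, the transcription factor gene whose mRNA IRE1 splices (ENSMUSG00000020484, chromosome 11, 5520659 to 5525893), was at 94.0, 90.7 and 92.3 CPM in GFPsg, 62.0, 60.8 and 62.4 CPM with guide 1 and 66.9, 68.4 and 66.1 CPM with guide 2. The 3 groups did not overlap, and the log2 change was −0.52 ± 0.03 (SE; edgeR adjusted p = 2.87e-10). Atf6, the sensor that becomes a transcription factor by cleavage (ENSMUSG00000026663, chromosome 1, 170704674 to 170867771), was at 79.1, 79.7 and 77.1 CPM in GFPsg, 96.2, 105 and 102 CPM with guide 1 and 99.5, 92.6 and 91.7 CPM with guide 2. Every library labelled knockout was above every control. The gene rose by 0.31 ± 0.04 (SE; edgeR adjusted p = 2.6e-06). Atf6 thus rose while Hspa5, Calr, Hsp90b1 and Sdf2l1, which ATF6 protein is known to activate, fell. The cleaved protein was not measured.

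Ern1, which encodes IRE1 alpha, was counted low. Its mean of 23.5 ± 2.59 CPM in the controls compares with 17.5 ± 1.37 for guide 1 and 20.1 ± 2.00 for guide 2, a fall (log2 change −0.33 ± 0.07 SE, edgeR adjusted p = 0.00105). The guide 2 libraries overlapped the controls. The call with guide 2 alone (adjusted p = 0.0358) was lost with library size alone (adjusted p = 0.245) and in the fit of the 2 groups compared (0.0616). It was also lost without GFPsg replicate 1 (0.189) or 3 (0.0667), without Tada2bsg1 replicate 2 (0.0505), and without Tada2bsg2 replicate 2 (0.124) or 3 (0.174). Atf6b, the paralog of Atf6, was at 46.5, 44.2 and 43.8 CPM in GFPsg, 38.5, 40.2 and 37.2 CPM with guide 1 and 43.5, 40.6 and 42.4 CPM with guide 2. The guide 2 libraries lay just under the controls, and edgeR called the gene lower with guide 1 (−0.21, adjusted p = 0.00102) and not with guide 2 (−0.09, adjusted p = 0.135). The difference between the guides was not called (0.13, adjusted p = 0.178). In the knockout contrast Atf6b fell by 0.15 (edgeR adjusted p = 0.00438), and with library size alone the call ended (−0.07, adjusted p = 0.227).

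Genes of ER-associated degradation were uneven. Of 9, 6 fell and 3 were not called, with a median log2 change of −0.18. Herpud1, a membrane protein that recruits the HRD1 ligase complex (ENSMUSG00000031770, chromosome 8, 94386438 to 94395377), had the lowest p of all 32 genes. Its values were 89.2, 89.5 and 88.6 CPM in GFPsg, 49.5, 49.1 and 49.1 CPM with guide 1 and 51.9, 52.0 and 51.6 CPM with guide 2. The spread within groups was below 0.5 CPM as SD, and the log2 change was −0.82 ± 0.03 (SE; edgeR adjusted p = 3.47e-13).

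The EDEM genes encode mannosidase-like lectins that mark misfolded glycoproteins, and 2 of the 3 fell in the knockout contrast. Edem1 was at 167, 164 and 162 CPM in GFPsg, 116, 118 and 114 CPM with guide 1 and 131, 125 and 117 CPM with guide 2 (log2 change −0.45 ± 0.04 SE, edgeR adjusted p = 1.36e-08). Edem2 fell by 0.48, from 48.0 ± 2.28 CPM to 33.3 ± 1.45 and 35.3 ± 1.24 CPM (mean ± SD, n = 3).

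Edem3 gave another picture. Its libraries read 95.1, 88.3 and 94.6 CPM in GFPsg, 82.3, 84.3 and 81.1 CPM with guide 1, and 97.8, 91.4 and 88.5 CPM with guide 2. Guide 1 lay below both other groups, and guide 2 overlapped the controls. edgeR called Edem3 lower with guide 1 (−0.17, adjusted p = 0.00515) and not with guide 2 (adjusted p = 0.981), and the guide 1 call was lost with library size alone (adjusted p = 0.186). The difference between guides was 0.16 with an edgeR adjusted p of 0.0523. In the knockout contrast the gene was not called (−0.08, adjusted p = 0.0811), but it was without Tada2bsg2 replicate 1 (−0.09, adjusted p = 0.0398).

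In the HRD1 complex itself the changes were small. Sel1l, the adaptor of the ligase, was at 131, 125 and 121 CPM in GFPsg, 108, 113 and 110 CPM with guide 1 and 124, 120 and 117 CPM with guide 2. Guide 1 lay below the controls and guide 2 overlapped them. The call with guide 1 was lost with library size alone (edgeR adjusted p = 0.0506). The log2 change was −0.13 ± 0.03 in the knockout contrast (SE; edgeR adjusted p = 0.00487), and the call was lost with library size alone (−0.05, adjusted p = 0.348). Syvn1, the HRD1 ligase gene, fell by 0.21 (edgeR adjusted p = 0.000407). Its call with guide 2 alone (adjusted p = 0.0124) was lost with library size alone (0.299), and without GFPsg replicate 3 (0.0660), Tada2bsg2 replicate 2 (0.0524) or Tada2bsg2 replicate 3 (0.0623).

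Derlins form part of the exit channel. Derl1, the most highly counted gene of the degradation group, was at 184, 198 and 187 CPM in GFPsg, 168, 169 and 169 CPM with guide 1 and 165, 162 and 171 CPM with guide 2 (log2 change −0.18 ± 0.03 SE, edgeR adjusted p = 0.000273). Its call with guide 1 was lost with library size alone (adjusted p = 0.0553). Derl2 was not called (0.05, edgeR adjusted p = 0.230), but with library size alone it was called higher (0.14, adjusted p = 0.00123). With guide 1 alone Derl2 was also called without GFPsg replicate 2 (0.12, adjusted p = 0.0415). Derl3 had 5 to 16 reads per library and no call (edgeR adjusted p = 0.487).

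At the entry and exit gates of the ER, 2 genes fell and 1 rose. Sec61b, the beta subunit of the translocation channel (ENSMUSG00000053317, chromosome 4, 47474658 to 47483242), was at 174, 199 and 198 CPM in GFPsg, 108, 112 and 120 CPM with guide 1 and 111, 115 and 122 CPM with guide 2. No library labelled knockout came near the lowest control, and the log2 change was −0.73 ± 0.05 (SE; edgeR adjusted p = 5.63e-10). Sec61a1, the pore-forming subunit, was at 381, 376 and 371 CPM in GFPsg, 333, 336 and 320 CPM with guide 1 and 354, 342 and 352 CPM with guide 2. Its fall was much smaller (−0.15 ± 0.03 SE, edgeR adjusted p = 0.000826) and was lost with library size alone (−0.06, adjusted p = 0.116). The call of Sec61a1 with guide 2 alone (adjusted p = 0.0266) was lost with DESeq2 size factors in edgeR (0.0550), with library size alone (0.715), with no low count filter (0.0546) and in the fit of the 2 groups compared (0.0997). Leaving out any of 8 of the 9 libraries, all but Tada2bsg1 replicate 2, also ended it (adjusted p = 0.0529 to 0.172). An antisense gene overlaps 8.16% of Sec61a1 exon bases.

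Sec24d, a cargo adaptor of the COPII coat that carries folded proteins out of the ER, was at 54.3, 51.6 and 53.7 CPM in GFPsg, 58.5, 59.7 and 57.6 CPM with guide 1 and 65.5, 59.7 and 58.9 CPM with guide 2. All 6 values were above the controls by a small margin, and the log2 change was 0.17 ± 0.04 (SE; edgeR adjusted p = 0.00159). With guide 1 alone (0.14, adjusted p = 0.0188) the call was lost without GFPsg replicate 2 (0.0547) or Tada2bsg1 replicate 2 (0.0718).

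Each guide was then set against GFPsg on its own, and these comparisons share the 3 control libraries. With guide 1, 27 of the 32 genes fell and 2 rose, where 24.5% of all genes tested were called lower and 23.8% higher. With guide 2, 24 fell and 2 rose, against 23.0% and 22.1% of all genes tested. All 24 that fell with guide 2 also fell with guide 1, and Atf6b, Sel1l and Edem3 were called with guide 1 alone. The median log2 change was −0.35 with guide 1 and −0.32 with guide 2.

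**Figure D4:**
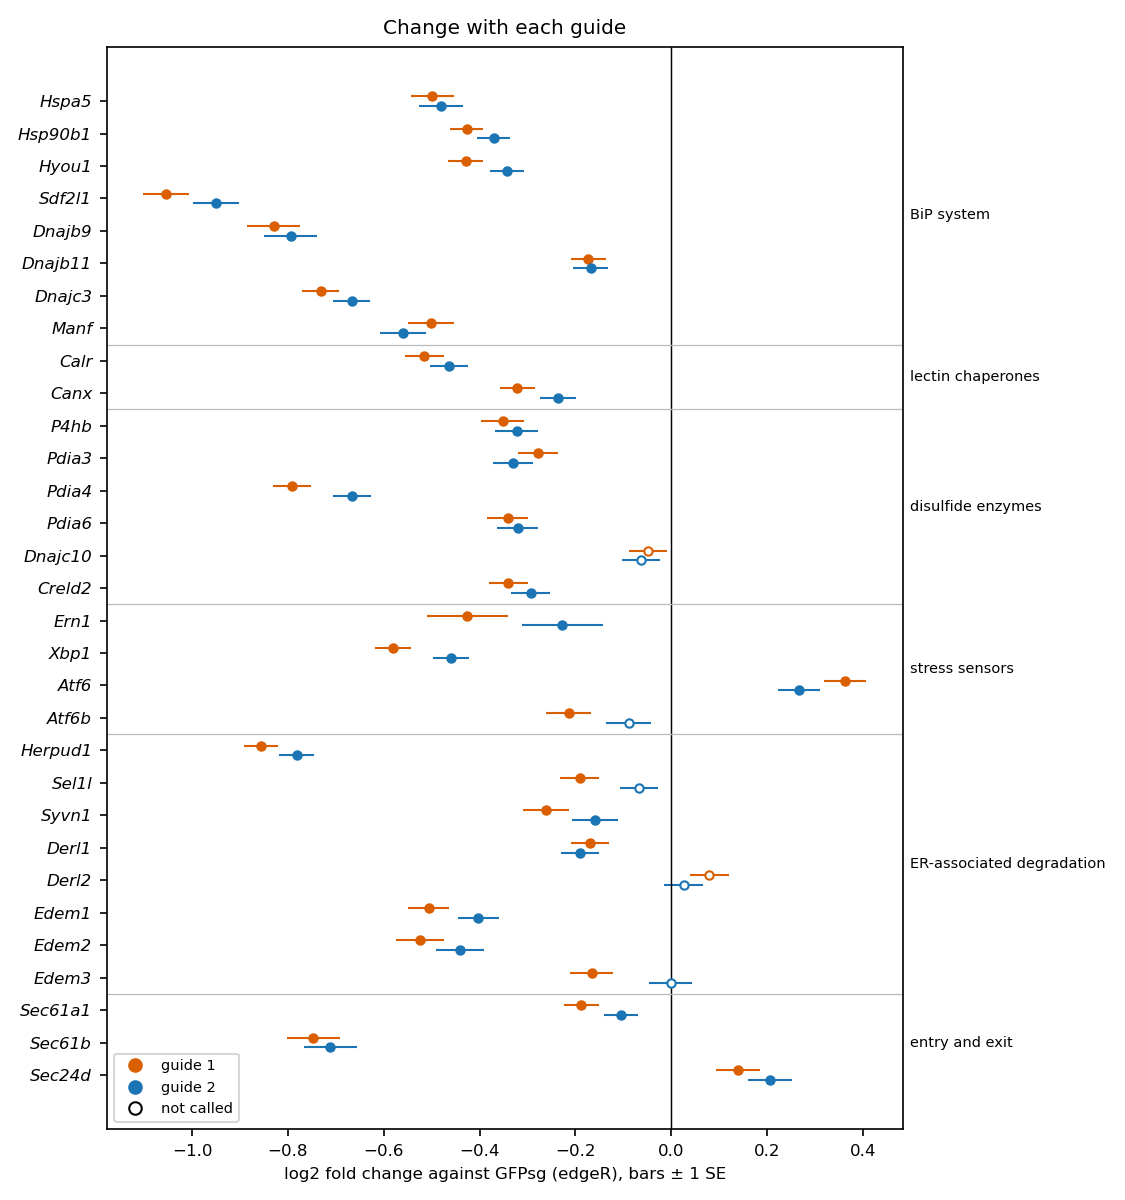
Log2 fold change of 31 of the 32 genes with guide 1 (orange) and guide 2 (blue) against the same 3 GFPsg libraries; bars are 1 SE from edgeR and open points were not called. Sdf2l1 lies farthest left, at −1.05 and −0.95, and Atf6 farthest right.

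Guide 2 was compared with guide 1 directly. No control library enters the difference itself, but the 3 controls share in the scaling and the estimate of spread of the fit. None of the 32 genes was called by edgeR (lowest adjusted p = 0.0523, for Edem3), where 3.68% of all genes tested were, 1.02% lower and 2.66% higher. At an unadjusted p under 0.05 there were 12 of the 32, where 16.9% of all genes tested passed. DESeq2 called 3, and 10 had an unadjusted p under 0.05, against 16.1% of all genes tested. Of the 26 genes that fell in the knockout contrast, 23 had a higher estimate with guide 2 than with guide 1. Among all 17931 genes tested, 9130 had a lower estimate with guide 2, and 72.3% of the genes called between the guides were higher. The share among all genes that fell was not computed. Apart from Derl3, no estimated difference exceeded 0.20 on the log2 scale. Melanocyte markers also stood higher with guide 2 than with guide 1, and their part in these differences was not tested.

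The expression values were set beside the promoter matches. Of the 11 genes with ERSE or ERSE-II, 10 fell and Derl3 was not called, with a median log2 change of −0.33. Of the 16 with a window and no such match, 12 fell, 1 rose and 3 were not called, with a median of −0.33 as well. Among all tested genes 26.3% fell. The search took exact letters within the window only, so a variant element or one farther away would be missed. The largest and the smallest falls occurred on either side. Herpud1 (−0.82) and Dnajb11 (−0.17) each have ERSE-II, while Sdf2l1 (−1.002) and Sel1l (−0.13) have neither form in this window.

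Around these 32 genes, 7 further lists of ER genes, 147 in all, were examined in the knockout contrast. Of the 145 that could be tested, 58 (40.0%) fell, 39 (26.9%) rose and 48 were not called, and their median log2 change was −0.04. Of all tested genes, 26.3% were called lower and 24.7% higher, so the share that rose was near that of all genes. The PERK arm had 6 of 10 genes lower and 3 higher. Ddit3, which encodes the cell death factor CHOP, was at 23.6, 22.1 and 23.1 CPM in GFPsg, 9.72, 8.63 and 8.24 CPM with guide 1 and 9.87, 9.20 and 10.8 CPM with guide 2 (log2 change −1.29 ± 0.06 SE, edgeR adjusted p = 1.09e-11). The PERK gene Eif2ak3 was at 26.9, 26.6 and 26.8 CPM in GFPsg, 13.9, 13.7 and 12.8 CPM with guide 1 and 15.7, 17.5 and 15.5 CPM with guide 2 (−0.86 ± 0.05 SE, edgeR adjusted p = 1.61e-10). Ppp1r15b, a subunit of the phosphatase that reverses PERK's action, fell by 0.39. Atf4 (−0.39), Trib3 (−0.34) and Chac1 (−0.14) also fell, Atf3 (0.59), Ppp1r15a (0.27) and Eif2s1 (0.12) rose, and Nfe2l2 was not called (−0.05).

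**Figure D5:**
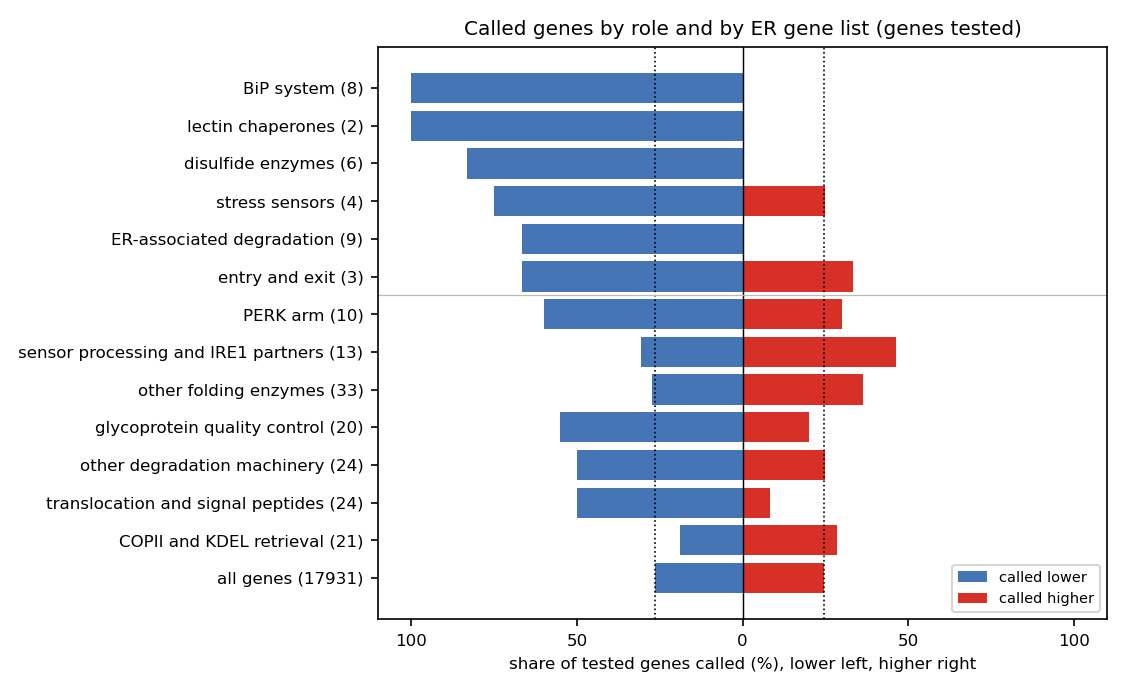
Share of tested genes called lower (blue, left) and higher (red, right) in the knockout contrast, in percent, for the 6 roles of the 32 genes (above the line) and the 7 further ER gene lists; the number tested is in brackets and dotted lines mark the shares of all genes, 26.3% and 24.7%. The BiP system and the lectin chaperones reach 100% lower, and COPII and KDEL retrieval genes 19.0%.

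Genes that bring proteins into the ER and attach their sugars fell more often than they rose. Among all genes tested, 26.3% were called lower and 24.7% higher. For translocation and signal peptides the counts were 12 lower (50%), 2 higher (8.33%) and 10 not called of 24. Tram1 (−0.65), Serp1 (−0.63) and Ssr3 (−0.36) were lowest in p. Glycoprotein quality control had 11 lower (55%), 4 higher (20%) and 5 not called of 20. The oligosaccharyltransferase genes Rpn1 (−0.54), Magt1 (−0.41) and Stt3b (−0.40) fell. Of the other genes of this enzyme, Stt3a, Dad1, Ddost, Ostc, Ost4 and Krtcap2 fell, Rpn2 was not called (0.04) and Tusc3 rose (0.18). In other degradation machinery 12 fell (50%), 6 rose (25%) and 6 were not called of 24. Erlin1, a membrane protein of lipid rafts in the ER, rose by 0.90, Ube2j1, a conjugating enzyme of the degradation route, by 0.32, and Ddrgk1 fell by 0.53.

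The remaining lists were mixed, where 26.3% of all genes tested were called lower and 24.7% higher. Other folding enzymes had 9 lower (27.3%), 12 higher (36.4%) and 12 not called of 33. Tmx4 was higher (0.56), and Ero1lb (−0.64) and Txndc11 (−0.49) were lower. Sensor processing and IRE1 partners had 4 lower (30.8%), 6 higher (46.2%) and 3 not called of 13. Creb3l2 (−0.64) and Bax (−0.25) were lower and Creb3 (0.32) higher. COPII and KDEL retrieval had 4 lower (19.0%), 6 higher (28.6%) and 11 not called of 21. Sec16b, a scaffold of ER exit sites, rose from 2.52 ± 0.11 CPM to 12.5 ± 0.40 and 10.0 ± 0.38 CPM (log2 change 2.15 ± 0.07 SE, edgeR adjusted p = 9.43e-14), the largest change in any of these lists. Sec23a rose by 0.28 and Cope fell by 0.28.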

How the data were processed

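The authors deposited whole-number counts for each gene and library, not normalized, judging from the values. bcl2fastq, HISAT2, HTSeq and mm10 are named per the submitters' processing notes. Versions, annotation release and strand setting are not given in the sources used here. Symbols, coordinates and exon lengths came from GENCODE M21, which matched 54723 of 54752 identifiers. The symbol Ddit3 names 2 identifiers, and the counted one was used.

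All 9 libraries entered 1 edgeR 4.0.16 fit (R 4.3.3) of 3 groups, with filterByExpr at a count minimum of 10 (17931 genes, 99.97% of counts), TMM scaling, the quasi-likelihood F test and Benjamini-Hochberg adjustment over all genes tested. CPM use TMM-scaled library sizes, and TPM were computed here. SEs were taken as the absolute log2 change divided by √F. The fit was tested on simulated data in which few genes changed, as many up as down. That setting does not test the choice of scaling. Within groups, pairs of libraries had a chi-square of 7.12 to 22.7 per degree of freedom, so none were duplicates. No batch is labelled.

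The 32 genes and the lists were chosen with earlier results of these data known. Values in every library are given, per role, for the 2 genes with the lowest p and the one with the highest mean CPM, for genes called higher, and for genes called between the guides or with 1 guide only (up to 6). From each further list the 3 genes with the lowest p are named. Dnajb9, Edem2, Derl2 and other genes given by mean, and the further PERK arm genes, were named after their values were seen. Alternatives were other scalings, no filter, DESeq2 1.42.0, a replicate block, fits of the 2 groups compared and leaving out each library.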

Additional observations from a re-analysis of the deposited data

Results flagged for a closer look

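Among the genes named above, 6 differed between the guides in the direct test of guide 2 against guide 1 (edgeR, adjusted p under 0.05), and none of these was among the 32 ER genes. Eif2ak3 was higher with guide 2 by 0.27 on the log2 scale (adjusted p = 0.0171) and Creb3l2 by 0.26 (adjusted p = 0.0125), both having fallen further with guide 1. For Erlin1 the difference was −0.16 (adjusted p = 0.0379) and for Sec16b −0.32 (adjusted p = 0.0126), both having risen further with guide 1. Atf3, which rose in the knockout contrast, differed by −0.22 (adjusted p = 0.036). Tada2b itself differed by −0.28 (adjusted p = 0.00671).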

How the results depend on the processing

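In the knockout contrast, 26 to 27 of the 32 genes were called lower and 2 higher when any 1 library was left out. With library size alone, Atf6b, Sel1l and Sec61a1 lost their lower call and Derl2 was called higher. Dnajc10 (0.028) and Edem3 (0.00040) changed sign with library size alone, and neither was called there. Genes called higher with guide 1 numbered 1 to 2 when 1 library was left out (1 without Tada2bsg1 replicate 2). The comparison of guide 2 with guide 1 moved most. For all genes it called 1070 with no filter on low counts, 1705 with the replicate block and 335 to 808 when 1 library was left out (345 without Tada2bsg1 replicate 2, 335 without Tada2bsg1 replicate 3, 399 without Tada2bsg2 replicate 2), against 660. Of the 32 ER genes it called 1 higher with DESeq2 size factors in edgeR (Edem3), 1 with library size alone (Pdia4), 1 with no filter (Edem3), 3 with DESeq2 (Pdia4, Xbp1 and Edem3) and 6 with the replicate block (Canx, Pdia4, Ern1, Xbp1, Sel1l and Edem3), and 0 to 1 when 1 library was left out (Edem3 without GFPsg replicate 1 or Tada2bsg2 replicate 3, Pdia4 without Tada2bsg2 replicate 1). The cause was not tested.

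The labels do not say whether libraries of the same replicate number belong together, and the main fit did not pair them. Deviations of same-numbered libraries from their group means correlated at −0.01 to 0.10, above 0.1 in 1 of 9 pairs, and 5 of 9 libraries correlated best with their own number in both other groups. With the replicate block the knockout contrast also called Edem3 (−0.08, adjusted p = 0.0328), and with guide 1 alone Derl2 (0.08, adjusted p = 0.0333). It changed no other call of the 32 against GFPsg. At 70.6 to 76.9 M counts, depth limits only Derl3, at 5 to 16 reads per library.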

Other observations

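ERSE or ERSE-II also stood in the promoter windows of 38 symbols outside the 32 ER genes, of which 35 matched the table and 20 were tested. Of these 20, 14 fell, 1 rose and 5 were not called in the knockout contrast, with a median log2 change of −0.23, where 26.3% of all tested genes fell. The symbols 1700122E12Rik and Alg12 carry the same element as their neighbours Calr and Creld2, and without them 12 of 18 fell (66.7%). Ero1b, an ER oxidase named Ero1lb in the annotation, fell by 0.64, Lgalsl by 0.46, Krtcap2, a subunit of the oligosaccharyltransferase, by 0.28 and Nucb1, a calcium-binding protein of the Golgi, by 0.23. Acacb (−0.67), Hnrnpa3 (−0.28), Pan2 (−0.27), Gm46430 (−0.21) and Lrif1 (−0.15) were also among the 14. Rcl1 was the gene that rose (0.17). The near-identical copies Xlr3a, Xlr3b and Xlr3c are among the 14, so that their reads may be split unevenly. This list was defined by sequence after the expression values had been seen, and no test was made of it.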
